A study of Mus musculus with 12 samples.

Results

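The keratin family was followed across 12 Affymetrix whole-genome expression arrays of mouse kidney RNA. A gene was a member when its symbol was Krt followed directly by a digit and at least 1 probe set named it alone, which gave 48 genes among the 18193 genes measured. Of these, 24 lie on chromosome 11 and 24 on chromosome 15. Genes entered the test only if some group had both of its arrays above their median signals, which held for 19 of the 48 keratins and 13037 genes in all.

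The arrays form 6 groups of 2. Organoids from medulla and from cortex were made in a 3D Matrigel (basement membrane gel) differentiation culture. Progenitor cells from medulla and from cortex were grown on a layer of fibroblast feeder cells. Tissue of kidney medulla and of kidney cortex was measured directly. The labels give no strain, age, sex, genotype or treatment, call the 2 arrays of a group biological replicates, and do not say whether they came from different animals or cultures, so p-values measure the spread between these arrays. Tissue RNA comes from all cells of the region, and the feeder cells are a possible second source of RNA in the progenitor cultures.

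Keratins are the intermediate filament proteins of epithelial cells. A filament is built from pairs of 1 acidic type I keratin, whose genes lie on mouse chromosome 11, and 1 basic type II keratin, whose genes lie on chromosome 15; Krt18 is the exception, a type I gene next to Krt8 on chromosome 15. Simple epithelia such as kidney tubules and ducts use Krt8 and Krt18 with Krt7, Krt19 or Krt20. The basal cells of stratified epithelia use Krt5 with Krt14 or Krt15, their upper layers other pairs, and hair follicles a large set of their own.

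Levels below are log2(signal + 15.1), where the signal is the deposited array signal and 15.1 units is an offset that damps noise in dim probe sets. On this scale the array medians lay between 6.19 and 6.75. A difference is a difference between group means on that scale, given with its standard error, and understates changes of dim genes. A gene is called higher or lower when the adjusted p-value of limma's moderated test, corrected over all 13037 genes, was below 0.05. Differences between sample types average the medulla and cortex differences. The 3 comparisons of sample types share arrays, so their results are not independent of each other.

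Among the simple epithelial keratins, all 6 passed the filter, and 5 of them were called higher in progenitor cells than in tissue (Krt20, Krt19, Krt18, Krt7 and Krt8), while Krt23 was lower. In organoids the same 5 were below the progenitor cells and above tissue. Directions in the rest of the family were mixed. Of the 19 tested keratins, 11 rose and 3 fell in progenitor cells against tissue, where 36.8% of all tested genes rose and 35.9% fell. In organoids against progenitor cells, 3 rose and 15 fell, where 28.1% of all tested genes rose and 44.3% fell. In organoids against tissue, 10 rose and 7 fell, where 33.0% of all tested genes rose and 46.6% fell. The median difference of the tested keratins was 0.83 in progenitor cells against tissue, beside 0.03 for all tested genes. It was -1.31 in organoids against progenitor cells, beside -0.29, and 0.61 in organoids against tissue, beside -0.29. Because a keratin could enter the test through the very group in which it was bright, these counts and medians describe the tested keratins and not the family.

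**Figure D1:**
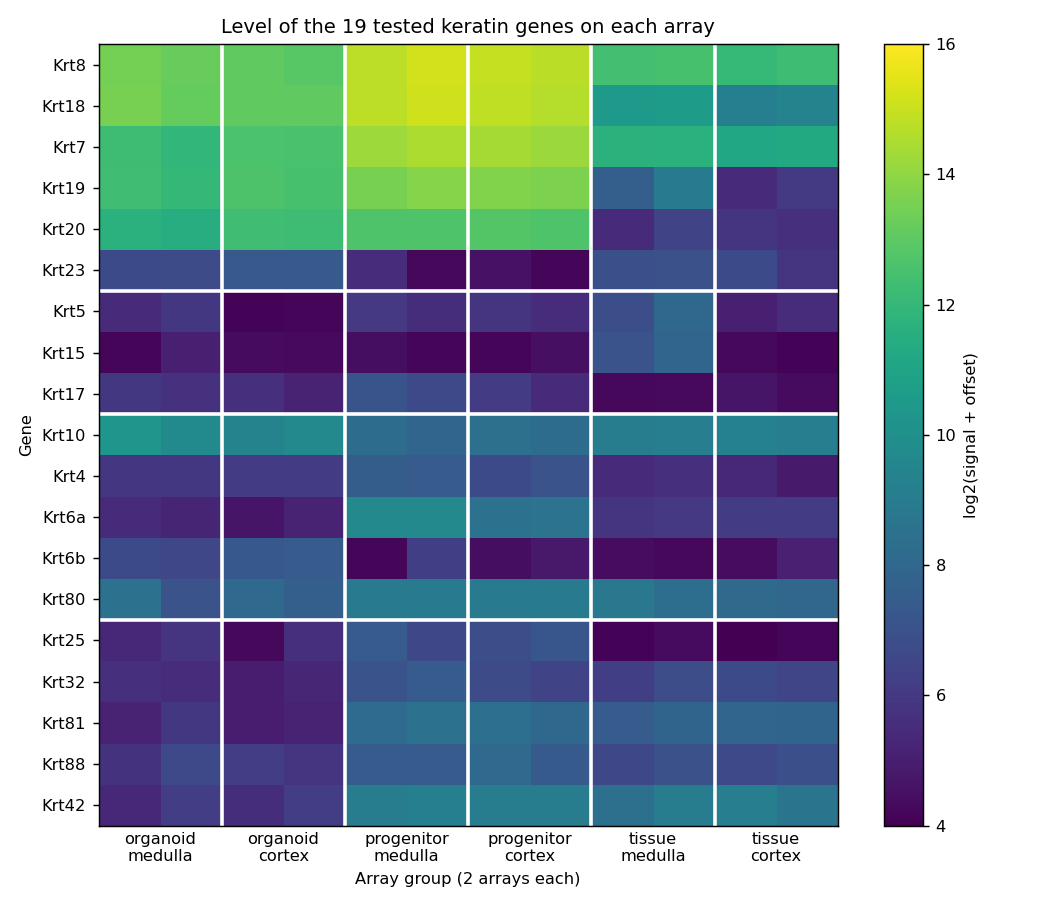
Level of each of the 19 tested keratins (rows, by class) as log2(signal + offset) by colour on each of the 12 arrays (columns), with organoid, progenitor and tissue arrays from left to right and medulla before cortex. Krt8, Krt18 and Krt7 are bright on all arrays, Krt19 and Krt20 are bright in organoids and progenitor cells, and Krt15 is above 7 only in medulla tissue.

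Technical features differed between sample types. The log2 signals of the poly-A spike controls, which are added to the RNA before labelling, had array medians of 1.21 to 1.88 on organoid arrays, 7.03 to 7.37 on progenitor arrays and 7.96 to 8.83 on tissue arrays. The Gapdh 3' probe set exceeded the 5' one by 0.87 to 1.67 on organoid arrays, against -0.41 to -0.30 on progenitor and -0.23 to 0.18 on tissue arrays. The actin 3' probe set, in contrast, exceeded the 5' one by -0.0015 to 0.15 on organoid arrays, 0.16 to 0.19 on progenitor and 0.94 to 1.63 on tissue arrays, so the 2 measures of RNA integrity set different sample types apart. Organoid differences and the difference in the spike controls cannot be told apart, and the part of RNA integrity was not tested. All 8 genes of the proximal tubule, a defining segment of kidney tissue, exceeded the median of every tissue array. The summed signal of those 8 genes was 135366 to 176154 in medulla and 170182 to 185478 in cortex tissue. None of the 8 was called between the regions, where 43 of 13037 tested genes were called higher in medulla and 1 lower. With so few calls this says little about the list, whose median difference was -0.31, beside 0.01 for all tested genes. The 12 fibroblast genes summed to 9378 to 9674 in medulla organoids, 2215 to 2800 in cortex organoids, 13523 to 18884 in progenitor cells and 5011 to 10086 in tissue, and the part of feeder or stromal RNA in the keratin results was not tested.

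Krt8 and Krt18 form the type II and type I pair of simple epithelia. Krt18 was 13.52 and 13.14 in medulla organoids and 13.07 and 13.06 in cortex organoids. It was 14.79 and 15.15 in medulla progenitor cells, 14.87 and 14.69 in cortex progenitor cells, 10.46 and 10.58 in medulla tissue and 9.19 and 9.35 in cortex tissue. The 3 sample types did not overlap: Krt18 was 4.98 ± 0.11 higher in progenitor cells than in tissue (31.6-fold, adjusted p = 6.25e-12, limma). It was 1.67 ± 0.11 lower in organoids than in progenitor cells and 3.31 ± 0.11 higher in organoids than in tissue.

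Krt8 was 13.50 and 13.22 in medulla organoids and 13.07 and 12.90 in cortex organoids. It was 14.82 and 15.17 in medulla progenitor cells, 14.93 and 14.75 in cortex progenitor cells, 12.43 and 12.53 in medulla tissue and 12.03 and 12.26 in cortex tissue. Its order over the sample types was that of Krt18, without overlap, with a smaller gap to tissue. Krt8 was 2.60 ± 0.11 higher in progenitor cells than in tissue (95% interval 2.37 to 2.84), where the interval of Krt18 was 4.74 to 5.22. In organoids against tissue, Krt8 was 0.86 ± 0.11 and Krt18 3.31 ± 0.11 higher, and in organoids against progenitor cells they were 1.75 ± 0.11 and 1.67 ± 0.11 lower. The 2 further Krt8 probe sets rose by 3.12 and 2.77 in progenitor cells against tissue. Both genes lay close to the brightest signals of the progenitor arrays, whose log2 maxima were 15.01 to 15.30, so compression there was possible and was not tested.

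Krt7, the type II keratin of ducts and urothelium, moved with Krt8. It was 12.27 and 11.97 in medulla organoids, 12.62 and 12.57 in cortex organoids, 14.26 and 14.52 in medulla progenitor cells and 14.37 and 14.19 in cortex progenitor cells. In tissue it was 11.70 and 11.68 in medulla and 11.20 and 11.27 in cortex, below every organoid array. Krt7 was 2.87 ± 0.09 higher in progenitor cells than in tissue, 1.98 ± 0.09 lower in organoids than in progenitor cells, and 0.89 ± 0.09 higher in organoids than in tissue.

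Krt19 and Krt20 had the largest differences of any tested keratin between progenitor cells and tissue. Krt19, a small type I keratin of ductal epithelia, was 12.31 and 11.97 in medulla organoids, 12.65 and 12.53 in cortex organoids, 13.55 and 13.82 in medulla progenitor cells and 13.73 and 13.61 in cortex progenitor cells. In tissue Krt19 was 7.62 and 8.99 in medulla and 5.42 and 6.03 in cortex, so the cortex arrays lay below the array median. It was 6.67 ± 0.24 higher in progenitor cells than in tissue (adjusted p = 2.21e-10, limma) and 5.35 ± 0.24 higher in organoids than in tissue.

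Krt20, a type I keratin known from intestinal epithelium and the surface cells of urothelium, was 11.68 and 11.49 in medulla organoids and 12.33 and 12.25 in cortex organoids. It was 12.71 and 12.67 in medulla progenitor cells, 12.78 and 12.70 in cortex progenitor cells, 5.46 and 6.44 in medulla tissue and 5.87 and 5.66 in cortex tissue. All tissue arrays were dim and the 8 others bright, and the difference between progenitor cells and tissue was 6.86 ± 0.17 (adjusted p = 1.40e-11, limma). Because tissue lay near or below the array medians, its size depends on the offset, and it was 7.27 with an offset of 1 and 5.91 with the median signal as offset. Krt20 stayed close to its progenitor level in organoids, 0.77 ± 0.17 lower, and was 6.08 ± 0.17 higher there than in tissue.

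Krt23, a type I keratin and the chromosomal neighbour of Krt20, ran the other way. It was 6.69 and 6.81 in medulla organoids and 7.36 and 7.35 in cortex organoids, 5.53 and 4.24 in medulla progenitor cells and 4.61 and 4.23 in cortex progenitor cells. Tissue held 6.94 and 6.97 in medulla and 6.71 and 5.87 in cortex, which overlapped with organoids. Krt23 was 1.97 ± 0.31 lower in progenitor cells than in tissue (adjusted p = 9.49e-05, limma) and 2.40 ± 0.31 higher in organoids than in progenitor cells, while organoids and tissue were not separated (0.43 ± 0.31, adjusted p = 0.216, limma).

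**Figure D2:**
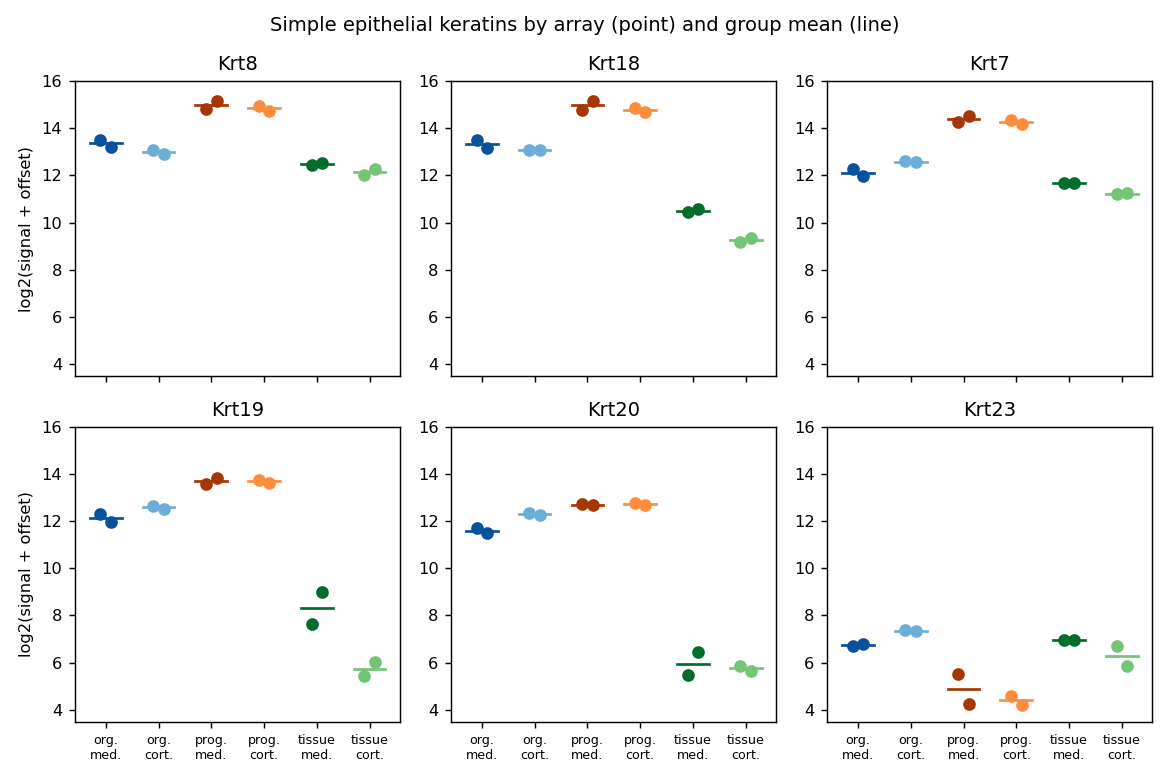
The 6 simple epithelial keratins as log2(signal + offset), 1 point per array and a line at each group mean, with organoids, progenitor cells and tissue from left to right and medulla before cortex. Krt8, Krt18, Krt7, Krt19 and Krt20 are highest in progenitor cells and Krt23 is lowest there.

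The upstream sequences of Krt8 and Krt18 are shown because these neighbours on chromosome 15 changed by unequal amounts, those of Krt20 and Krt23 because these neighbours on chromosome 11 changed in opposite directions, and that of Krt7 because it moved with Krt8. Each sequence is the 250 bases before the gene's start in RefSeq, build GRCm38.p6, read 5' to 3' on the gene's strand. Capitals mark 2 motifs searched on both strands, the TATA box letters TATAAA and the GC box letters GGGCGG.
Krt8 (chr15:102004343-102004592, minus strand): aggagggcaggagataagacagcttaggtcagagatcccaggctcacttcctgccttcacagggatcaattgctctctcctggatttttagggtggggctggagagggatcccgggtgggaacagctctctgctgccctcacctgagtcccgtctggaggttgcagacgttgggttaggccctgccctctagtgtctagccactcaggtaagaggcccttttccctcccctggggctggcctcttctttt
Krt18 (chr15:102027966-102028215, plus strand): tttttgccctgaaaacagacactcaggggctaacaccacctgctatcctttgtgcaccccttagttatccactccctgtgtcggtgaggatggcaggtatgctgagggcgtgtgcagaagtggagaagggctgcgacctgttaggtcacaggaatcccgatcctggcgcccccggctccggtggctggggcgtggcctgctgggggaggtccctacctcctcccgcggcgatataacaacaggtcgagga
Krt7 (chr15:101412153-101412402, plus strand): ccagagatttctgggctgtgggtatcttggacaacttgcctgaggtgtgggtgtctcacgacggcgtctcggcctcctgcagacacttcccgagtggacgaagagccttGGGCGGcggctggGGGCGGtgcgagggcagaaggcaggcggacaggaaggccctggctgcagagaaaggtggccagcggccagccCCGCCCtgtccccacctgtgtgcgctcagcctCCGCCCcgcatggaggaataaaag
Krt20 (chr11:99438154-99438403, minus strand): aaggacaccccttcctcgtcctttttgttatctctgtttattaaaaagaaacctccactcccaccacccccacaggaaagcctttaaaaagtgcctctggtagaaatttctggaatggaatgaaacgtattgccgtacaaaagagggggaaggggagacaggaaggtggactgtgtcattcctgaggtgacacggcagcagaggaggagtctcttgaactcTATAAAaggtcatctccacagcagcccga
Krt23 (chr11:99493121-99493370, minus strand): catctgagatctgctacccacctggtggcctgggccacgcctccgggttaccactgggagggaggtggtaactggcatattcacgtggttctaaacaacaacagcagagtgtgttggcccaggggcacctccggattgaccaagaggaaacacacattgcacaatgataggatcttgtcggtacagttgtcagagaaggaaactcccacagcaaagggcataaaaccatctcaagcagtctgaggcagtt
Krt20 held TATAAA beginning 29 bases before its start, and Krt7 held 4 GC boxes, at 141 and 128 bases on the gene's strand and at 56 and 24 bases on the other. No match to either motif, or to the AP-1 letters TGANTCA, was found in the windows of Krt8, Krt18 and Krt23. Among 32851 promoter windows of this length, 12.4% held the TATA box letters, 32.7% the GC box letters and 6.75% the AP-1 letters. Of the 19 tested keratins, 10 had a window in the RefSeq table, of which 4 held a TATA box, 1 a GC box and 0 the AP-1 letters. A match describes letters in the window and no match says nothing of a factor.

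Among the basal layer keratins, Krt5, Krt15 and Krt17 were tested, and Krt14 was not. Krt15, a type I keratin of basal cells and of hair follicle stem cells, was bright only on the 2 medulla tissue arrays. It was 4.23 and 5.04 in medulla organoids, 4.36 and 4.30 in cortex organoids, 4.42 and 4.22 in medulla progenitor cells and 4.19 and 4.48 in cortex progenitor cells. In tissue it was 7.07 and 7.92 in medulla but 4.25 and 4.13 in cortex, so its called differences of -1.51 ± 0.28 in progenitor cells and -1.36 ± 0.28 in organoids against tissue rest on medulla tissue. Krt5, the type II basal keratin, was 5.48 and 5.93 in medulla organoids, 4.13 and 4.22 in cortex organoids, 5.98 and 5.57 in medulla progenitor cells and 5.79 and 5.52 in cortex progenitor cells. Tissue held 6.90 and 8.03 in medulla and 5.04 and 5.52 in cortex. Krt5 was 1.43 ± 0.29 lower in organoids than in tissue and 0.78 ± 0.29 lower than in progenitor cells (adjusted p = 0.0300, limma). It entered the test through medulla tissue alone, so the difference against tissue is tied to the filter. Cortex tissue overlapped with medulla organoids. Every organoid and progenitor array lay below its median, and with the median signal as offset their difference was -0.29 and not called (adjusted p = 0.154, limma). The call against progenitor cells was lost without any 1 of 5 arrays (adjusted p 0.0571 to 0.0948): either cortex organoid array, medulla organoid replicate 1, medulla progenitor replicate 1 or cortex progenitor replicate 1. Progenitor cells and tissue were not separated for Krt5 (-0.66 ± 0.29, adjusted p = 0.0597).

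Krt17, a type I keratin induced in stressed and wounded epithelium, was 5.94 and 5.72 in medulla organoids, 5.60 and 5.15 in cortex organoids, 7.13 and 6.66 in medulla progenitor cells and 6.13 and 5.44 in cortex progenitor cells. It was 4.24 and 4.29 in medulla tissue and 4.68 and 4.37 in cortex tissue, below every other array. It was 1.94 ± 0.26 higher in progenitor cells and 1.20 ± 0.26 higher in organoids than in tissue, and 0.74 ± 0.26 lower in organoids than in progenitor cells (adjusted p = 0.0215, limma). The last of these calls was lost without cortex progenitor replicate 1, medulla progenitor replicate 1, cortex organoid replicate 2 or medulla organoid replicate 2 (adjusted p 0.0530 to 0.0952). A second, dimmer Krt17 probe set, above the median in no group, gave 0.32 in progenitor cells and -0.10 in organoids against tissue, with neither called. A probe set that names both Krt17 and Krt14 was not used for either gene and stood between 5.0 and 6.43 on the 12 arrays.

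In the class of suprabasal, barrier and mucosal keratins, 5 of 15 genes were tested. Krt6a, a type II keratin induced in wounded and activated epithelium, was 5.47 and 5.23 in medulla organoids, 4.68 and 5.13 in cortex organoids, 9.64 and 9.65 in medulla progenitor cells and 8.53 and 8.59 in cortex progenitor cells. It was 5.81 and 5.98 in medulla tissue and 6.12 and 6.10 in cortex tissue. On this probe set only the progenitor arrays lay above the array medians, while on one of the 2 further Krt6a probe sets medulla tissue (6.72 and 7.73) did as well. Krt6a was 3.10 ± 0.20 higher in progenitor cells than in tissue and 3.97 ± 0.20 lower in organoids than in progenitor cells, and the further probe sets ran in the same directions. Organoids were 0.87 ± 0.20 below tissue on this probe set and 0.41 above it on one of the further ones, where the difference was not called (adjusted p = 0.224).

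The near-identical neighbour Krt6b did not share that pattern. Krt6b was 6.72 and 6.54 in medulla organoids and 7.31 and 7.47 in cortex organoids, 4.21 and 6.24 in medulla progenitor cells, 4.45 and 4.81 in cortex progenitor cells, 4.40 and 4.28 in medulla tissue and 4.38 and 5.12 in cortex tissue. Organoid arrays were above all others, by 2.08 ± 0.38 against progenitor cells and 2.47 ± 0.38 against tissue. Krt6b entered the test through cortex organoids alone, so these differences are tied to the filter. Every progenitor and tissue array lay below its median for Krt6b. Krt6a and Krt6b are close copies, so probes of one can also take up transcript of the other, and their values are uncertain to that extent.

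Krt10, a type I keratin of the upper epidermal layers, was 10.32 and 9.73 in medulla organoids, 9.39 and 9.66 in cortex organoids, 8.26 and 7.90 in medulla progenitor cells and 8.42 and 8.23 in cortex progenitor cells. In tissue it was 9.07 and 9.15 in medulla and 9.29 and 9.12 in cortex. The progenitor arrays were the lowest, 0.96 ± 0.16 below tissue, and the organoids the highest, 1.57 ± 0.16 above progenitor cells and 0.61 ± 0.16 above tissue. The last call was lost when arrays were scaled to each other by quantiles (0.39, adjusted p = 0.0524) or to a common 75th percentile (0.38, adjusted p = 0.0593).

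Krt4, a type II keratin of mucosal epithelia, was 5.91 and 5.95 in medulla organoids, 6.12 and 6.12 in cortex organoids, 7.55 and 7.42 in medulla progenitor cells and 6.69 and 7.08 in cortex progenitor cells. It was 5.46 and 5.67 in medulla tissue and 5.33 and 4.85 in cortex tissue, below the other arrays. Krt4 was 1.86 ± 0.22 higher in progenitor cells and 0.70 ± 0.22 higher in organoids than in tissue, and 1.16 ± 0.22 lower in organoids than in progenitor cells. It entered the test through progenitor cells alone, so its differences from these cells are tied to the filter. Every organoid and tissue array lay below its median for Krt4. The organoid call against tissue was lost without cortex tissue replicate 2 (adjusted p = 0.0517) and on the other Krt4 probe set (0.28, adjusted p = 0.342).

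Krt80, a type II keratin of many epithelia that lies beside Krt7, was 8.52 and 7.07 in medulla organoids, 8.09 and 7.63 in cortex organoids, and 8.94, 9.01, 8.96 and 9.01 on the progenitor arrays, medulla first. Tissue held 8.79 and 8.32 in medulla and 8.16 and 7.98 in cortex. Krt80 was 1.15 ± 0.27 lower in organoids than in progenitor cells and 0.67 ± 0.27 higher in progenitor cells than in tissue. The second call had an adjusted p of 0.0440 and was lost in 14 of 23 alternatives, among them the omission of any array other than the medulla organoids and medulla tissue replicate 1, where adjusted p was 0.0539 to 0.143.

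Few hair keratins passed the filter. Krt25, a type I keratin of the hair inner root sheath, was 5.39 and 5.79 in medulla organoids, 4.28 and 5.66 in cortex organoids, 7.43 and 6.62 in medulla progenitor cells and 6.90 and 7.19 in cortex progenitor cells. It was 4.10 and 4.33 in medulla tissue and 4.04 and 4.16 in cortex tissue, close to the lower end of the scale. Krt25 was 2.88 ± 0.32 higher in progenitor cells than in tissue, 1.75 ± 0.32 lower in organoids than in progenitor cells, and 1.12 ± 0.32 higher in organoids than in tissue. It entered the test through progenitor cells alone, so its differences from these cells are tied to the filter. Organoid and tissue arrays all lay below their medians and overlapped. The difference between organoids and tissue ran from 0.40 to 2.61 over the alternatives.

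Krt81, Krt88 and Krt32, keratins of the hair shaft, and Krt42, a type I keratin known from the mouse nail, shared low levels in organoids. Krt42 was 5.35 and 6.18 in medulla organoids, 5.57 and 6.16 in cortex organoids, 9.04 and 9.20 in medulla progenitor cells, 9.04 and 9.11 in cortex progenitor cells, 8.44 and 9.02 in medulla tissue and 9.15 and 8.64 in cortex tissue. Krt81 was 5.21 and 5.94 in medulla organoids, 4.91 and 5.13 in cortex organoids, 8.21 and 8.52 in medulla progenitor cells, 8.39 and 8.01 in cortex progenitor cells, 7.50 and 7.86 in medulla tissue and 7.93 and 7.85 in cortex tissue. The organoid arrays lay below all others for both genes. Krt42 was 3.28 ± 0.24 lower and Krt81 2.99 ± 0.23 lower in organoids than in progenitor cells, and 3.00 ± 0.24 and 2.49 ± 0.23 lower in organoids than in tissue. For both, progenitor cells and tissue were not separated (0.29 ± 0.24, adjusted p = 0.305, for Krt42 and 0.50 ± 0.23, adjusted p = 0.0680, for Krt81). A second, dimmer Krt42 probe set, above the median in no group, gave smaller organoid differences. They were -1.05 against progenitor cells and -0.99 against tissue, both called.

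Krt88 was 5.75 and 6.63 in medulla organoids, 6.19 and 5.85 in cortex organoids, 7.51 and 7.45 in medulla progenitor cells, 8.12 and 7.41 in cortex progenitor cells, 6.60 and 6.98 in medulla tissue and 6.67 and 6.92 in cortex tissue. The progenitor arrays were the highest, and organoid and tissue arrays overlapped. It was 0.83 ± 0.26 higher in progenitor cells than in tissue, 1.52 ± 0.26 lower in organoids than in progenitor cells and 0.69 ± 0.26 lower in organoids than in tissue. The call against tissue in progenitor cells was lost without cortex progenitor replicate 1 (adjusted p = 0.0658), and that in organoids without cortex tissue replicate 2, medulla tissue replicate 2, cortex organoid replicate 2 or medulla organoid replicate 1 (adjusted p 0.0833 to 0.0923). Krt32 was 5.63 and 5.54 in medulla organoids, 4.95 and 5.27 in cortex organoids, 7.07 and 7.48 in medulla progenitor cells, 6.81 and 6.46 in cortex progenitor cells, 6.24 and 6.84 in medulla tissue and 6.72 and 6.51 in cortex tissue. The organoid arrays were again the lowest, and Krt32 was 1.60 ± 0.24 lower in organoids than in progenitor cells and 1.23 ± 0.24 lower than in tissue, while progenitor cells and tissue were not separated (0.38 ± 0.24, adjusted p = 0.171). The probe set of Krt42 carries the suffix x_at, the array maker's mark for probes that may match several transcripts, and Krt81, Krt83, Krt86 and Krt88 are close relatives, so these probe sets may hold signal of related genes.

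**Figure D3:**
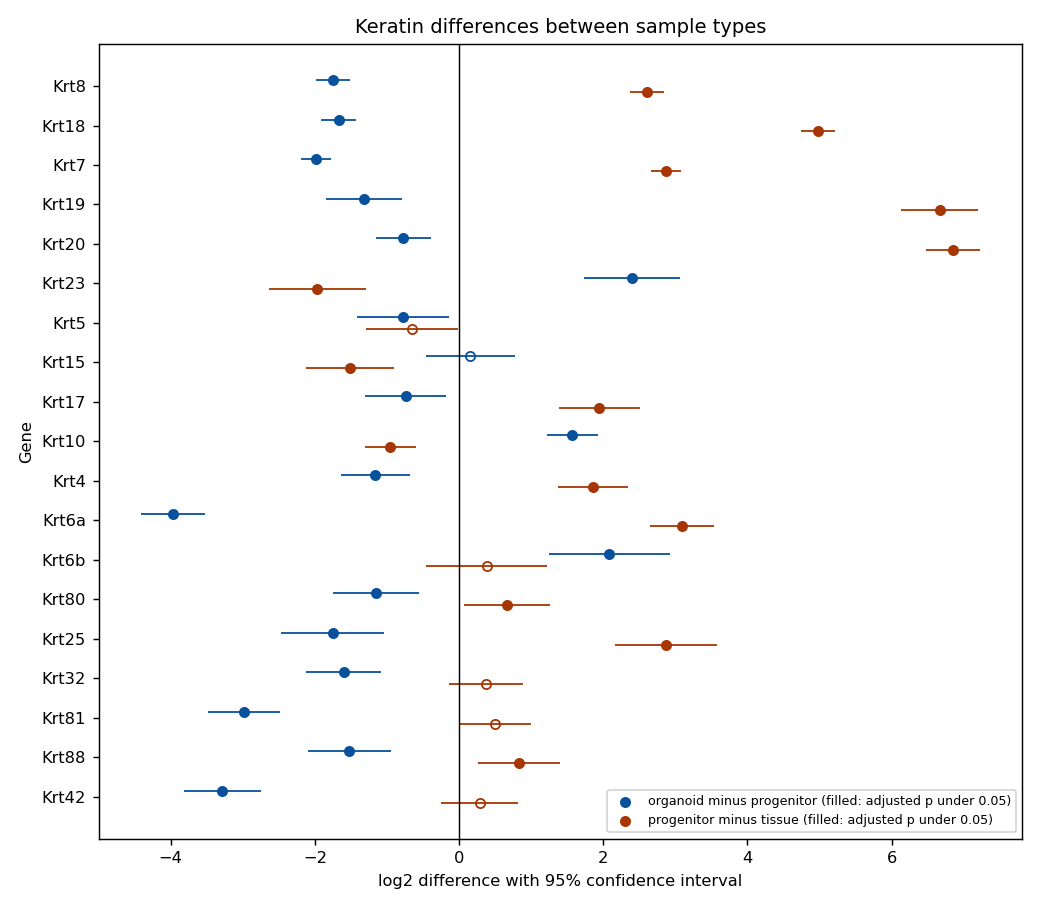
Log2 differences of the 19 tested keratins with 95% confidence intervals, for organoids minus progenitor cells (upper point of each pair) and progenitor cells minus tissue (lower point), with filled points for adjusted p below 0.05. Krt20, Krt19 and Krt18 lie farthest above 0 in progenitor cells minus tissue, and 15 of 19 keratins are called below 0 in organoids minus progenitor cells.

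The other 29 keratins stood between 3.96 and 8.14, with a median of 4.90, and no group had both arrays above the median. They were Krt14 of the basal class; Krt1, Krt2, Krt12, Krt13, Krt16, Krt24, Krt76, Krt77, Krt78 and Krt79 of the suprabasal class; Krt26, Krt27, Krt28, Krt71, Krt72, Krt73 and Krt75 of the root sheath; Krt31, Krt33a, Krt33b, Krt34, Krt35, Krt36, Krt82, Krt83, Krt84 and Krt86 of the hair shaft; and Krt222, which was not classed. The highest value, 8.14, was that of Krt24 on 1 medulla organoid array, where the second array gave 5.90. Krt3, Krt9, Krt39, Krt40, Krt74, Krt85, Krt87 and Krt90 were not analysed here.

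Between the regions of the kidney, 3 keratins were higher in medulla than in cortex tissue and none was lower, where 0.330% of all tested genes were called higher. The genes tested include those that passed the filter through medulla tissue alone, as Krt15 and Krt5 did. When a gene had to lie above the median on 6 arrays, 2 keratins were called. The count of 3 is therefore given as a description. Krt15 was 3.31 ± 0.40 higher (adjusted p = 0.00366, limma), Krt19 2.58 ± 0.34 higher (adjusted p = 0.00684) and Krt18 1.25 ± 0.16 higher (adjusted p = 0.00474). The size for Krt15, whose cortex level is at the lower end of the scale, was 5.36 with an offset of 1 and 1.71 with the median signal as offset, and it was called under both. For all 3, both medulla arrays lay above both cortex arrays, as the values given above show. Krt5 was 2.18 ± 0.41 higher without passing the threshold (adjusted p = 0.0547), and the differences of Krt7 (0.46 ± 0.13, adjusted p = 0.255) and Krt8 (0.34 ± 0.15, adjusted p = 0.547) were smaller. Krt14, the usual partner of Krt5, was not tested and stood at 5.66 and 6.71 in medulla against 4.23 and 4.12 in cortex tissue on its brightest probe set. The 2 other Krt14 probe sets gave 5.11 and 4.43 against 4.62 and 4.33, and 4.21 and 4.92 against 4.26 and 4.20, medulla before cortex, so the regions overlapped there. Without cortex tissue replicate 1, Krt18 (adjusted p = 0.110) and Krt19 (adjusted p = 0.133) were no longer called and Krt15 was. When only the 2 tissue groups were fitted, none of the 3 was called (adjusted p 0.0915 to 0.385).

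Uroplakins, membrane proteins of the urothelium that lines the renal pelvis, were also higher in medulla tissue. Upk1b was 8.17 and 8.98 in medulla against 5.22 and 5.48 in cortex tissue, and Upk3a was 8.03 and 9.29 against 6.0 and 5.85 in cortex tissue. Of 5 uroplakin genes 3 were called higher in medulla tissue and 0 lower, where 0.330% of all tested genes were called higher. They were Upk1b (3.22 ± 0.48, adjusted p = 0.0157), Upk3b (3.14 ± 0.35, adjusted p = 0.00228) and Upk3a (2.73 ± 0.49, adjusted p = 0.0459). All 5 exceeded the median on both medulla tissue arrays, but only 1 did on both cortex tissue arrays. A uroplakin could thus enter the test through medulla tissue, so the count is a description. The summed signal of the 5 genes was 974 to 1645 in medulla and 179 to 227 in cortex tissue, and its part in the keratin differences was not tested. Sprr1a, which codes for a small proline-rich protein of the cornified envelope, was 3.58 ± 0.38 higher in medulla tissue, the only one called of 8 tested genes of that list, whose median difference was -0.04, beside 0.01 for all tested genes. Trp63, a transcription factor of basal epithelial cells, was 6.69 and 7.21 in medulla against 5.63 and 5.97 in cortex tissue and was not called (1.15 ± 0.49, adjusted p = 0.508). None of 8 collecting duct genes was called between the regions of tissue. Since only 0.330% of all tested genes were called higher in medulla tissue, that count says little about the list. The median difference of the 8 was 0.30, beside 0.01 for all tested genes. Their summed signals were 22302 to 33838 in medulla and 19164 to 21627 in cortex. In bulk samples such as these, more cells of a type and more RNA per cell cannot be told apart.

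**Figure D4:**
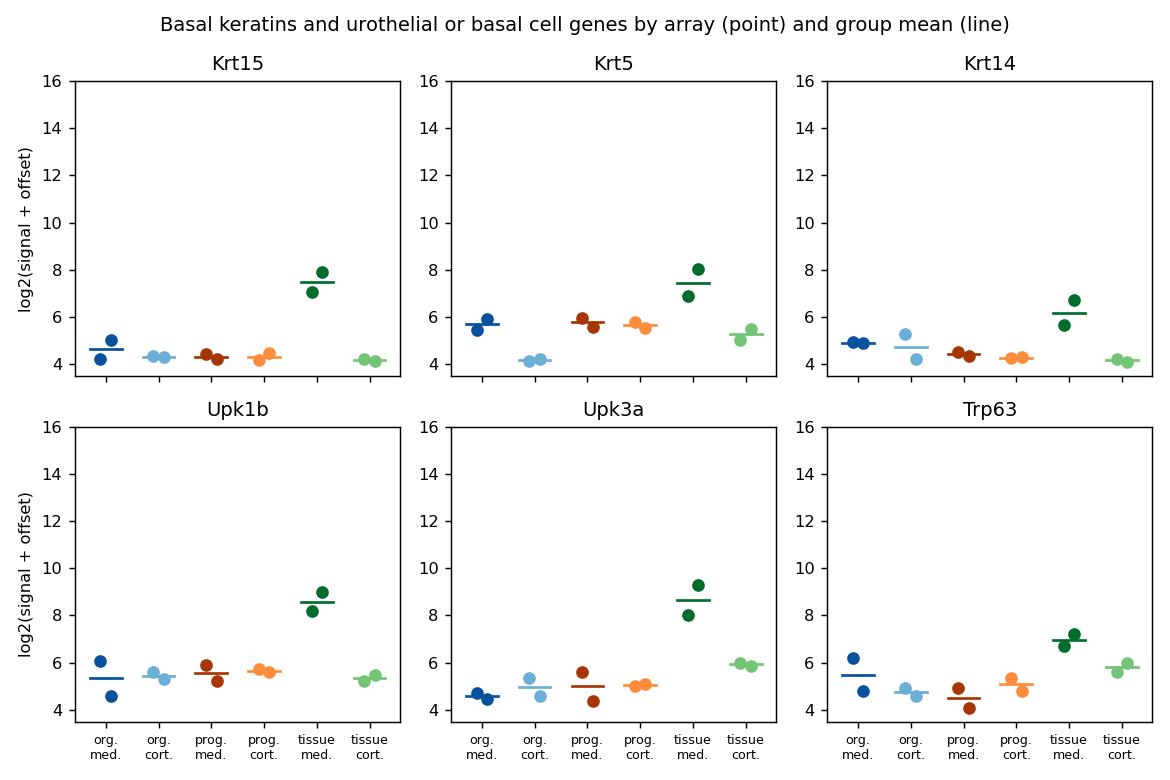
Krt15, Krt5, Krt14, Upk1b, Upk3a and Trp63 as log2(signal + offset), 1 point per array and a line at each group mean, with organoids, progenitor cells and tissue from left to right and medulla before cortex. In each panel both medulla tissue arrays lie above both cortex tissue arrays; each gene is shown by its brightest probe set, and 2 dimmer Krt14 probe sets overlapped between the regions.

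The keratins called in tissue were not called by region in culture. No keratin was called between medulla-derived and cortex-derived progenitor cells, where 0.314% of all tested genes were called, and 2 keratins had an unadjusted p below 0.05. These were Krt6a (1.08 ± 0.29, adjusted p = 0.259) and Krt17 (1.11 ± 0.36, adjusted p = 0.514), each with both medulla arrays above both cortex arrays. Krt17 entered the test through medulla progenitor cells alone, so its difference is tied to the filter. The share of all tested genes with an unadjusted p below 0.05 was not counted in any comparison. Krt15 and Krt19, called in tissue, differed by -0.01 ± 0.40 and 0.01 ± 0.34 between the progenitor groups. Tested directly, the medulla difference of Krt15 was 3.32 ± 0.56 smaller in progenitor cells than in tissue (adjusted p = 0.0325, limma). Krt15 was the only keratin called there, where 0.284% of all tested genes were called. It entered the test through medulla tissue alone, a group in this contrast, so the call is given as a description. That call was lost when any 1 of 8 arrays was left out, namely all 4 progenitor arrays, both cortex tissue arrays or both cortex organoid arrays (adjusted p 0.0871 to 0.177). For Krt19 the same comparison gave -2.57 ± 0.48 (adjusted p = 0.0625) and for Krt18 -1.06 ± 0.22 (adjusted p = 0.108).

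In organoids 2 keratins were called between medulla and cortex, where 18.0% of all tested genes were called in either direction. Krt5 was 1.53 ± 0.41 higher in medulla organoids (adjusted p = 0.0247) and Krt7 was 0.47 ± 0.13 lower (adjusted p = 0.0308), both without overlap. Neither was called without cortex organoid replicate 1, cortex organoid replicate 2 or medulla organoid replicate 2 (adjusted p 0.0646 to 0.136). Krt5 lay below the array median on every organoid array. With the median signal as offset its difference was 0.56 and not called (adjusted p = 0.133, limma). Fibroblast genes differed in the same comparison, with 11 of 12 called higher in medulla organoids and 0 lower. Col1a1 was 1.37 ± 0.17 and Vim, the intermediate filament protein of mesenchymal cells, 2.85 ± 0.18 higher. Their part in the keratin values was not tested. No keratin was called on its brightest probe set for a change of the regional difference between organoids and progenitor cells, where 4.10% of all tested genes were called and 3 keratins had an unadjusted p below 0.05. On the second Krt4 probe set this change was called (-2.53 ± 0.52, adjusted p = 0.0228), as was medulla minus cortex in organoids (-1.26 ± 0.37, adjusted p = 0.0357).

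**Figure D5:**
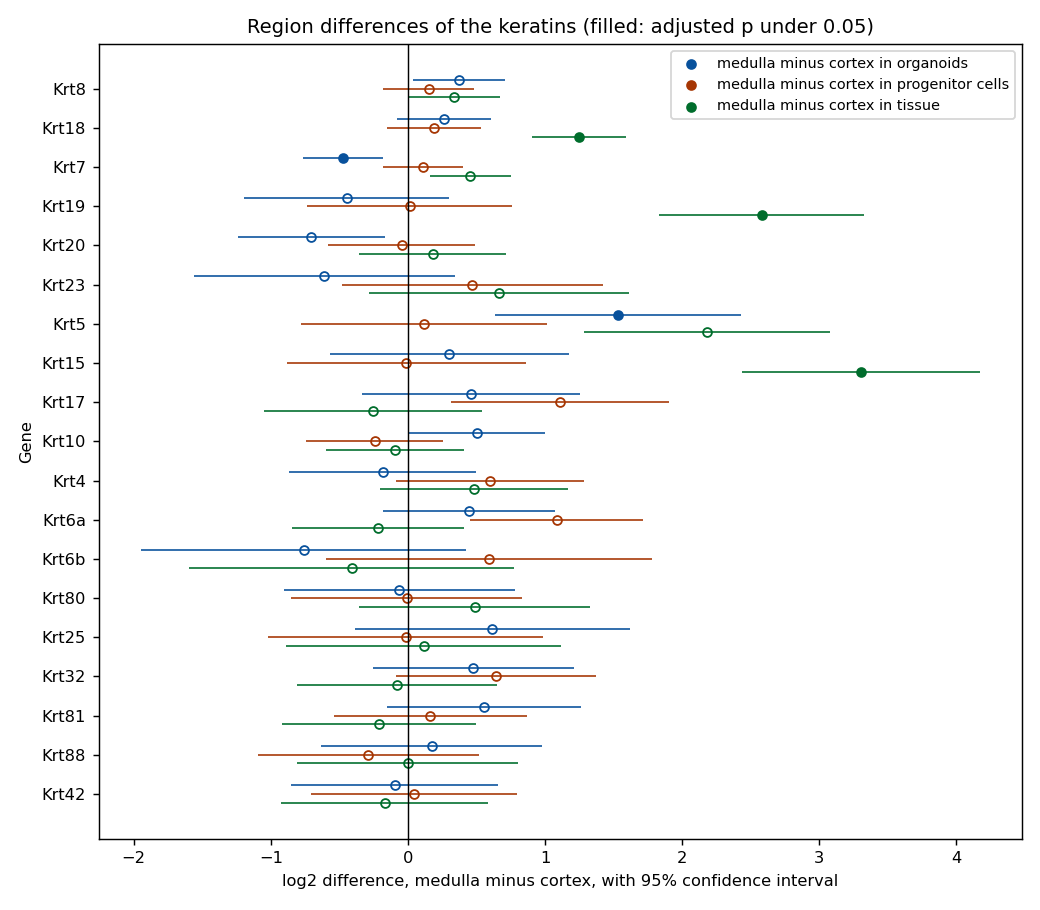
Log2 differences of the 19 tested keratins between medulla and cortex with 95% confidence intervals, in organoids, progenitor cells and tissue, with filled points for adjusted p below 0.05. Krt15, Krt19 and Krt18 are called in tissue, none in progenitor cells, and Krt5 and Krt7 in organoids, in opposite directions.

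The proteins that anchor keratin filaments were compared in the same way, and the shares of all tested genes given above for each comparison (36.8% higher and 35.9% lower in progenitor cells against tissue, 28.1% and 44.3% in organoids against progenitor cells) apply to the counts that follow. Desmosomes tie filaments to neighbouring cells, and of 9 tested desmosome genes 7 were higher and 1 lower in progenitor cells than in tissue (median 0.98, beside 0.03 for all tested genes). The largest called differences were those of Pkp1 (3.68 ± 0.34), Dsc2 (2.90 ± 0.15), Pkp3 (1.94 ± 0.15) and Dsp (1.69 ± 0.15), which code for 2 plakophilins, a desmocollin and desmoplakin. Jup, the plakoglobin gene, was not called (0.19 ± 0.10, adjusted p = 0.0911). In organoids against progenitor cells 3 of the 9 were higher and 5 lower, near the shares of all tested genes, with Pkp1 2.42 ± 0.34 and Pkp3 1.93 ± 0.15 lower, Dsp 0.47 ± 0.15 and Jup 0.89 ± 0.10 higher. In organoids against tissue 5 were higher and 2 lower, where 33.0% of all tested genes were higher and 46.6% lower.

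Hemidesmosomes tie filaments to the basement membrane. Of 5 tested genes of hemidesmosomes and their laminin ligand, 3 were higher and 0 lower in progenitor cells than in tissue, led by Lamb3 (5.02 ± 0.22), Itgb4 (4.17 ± 0.35) and Lama3 (2.77 ± 0.11). Against progenitor cells, 1 was higher and 4 were lower in organoids (median -0.71, beside -0.29 for all tested genes). In a list of 10 plakins, keratin linkers and associated genes, 6 were higher and 2 lower in progenitor cells than in tissue. Ppl (3.01 ± 0.14), Eppk1 (2.58 ± 0.13), Krtcap3 (2.38 ± 0.19) and Plec (1.76 ± 0.16) were higher. Dst (-1.93 ± 0.09) and the regulator Trp63 (-1.58 ± 0.35) were lower. The list is wider than filament anchors, since Trp63 codes for a transcription factor and Krtcap3 for a keratinocyte-associated protein. In organoids against progenitor cells 3 of the 10 were higher and 4 lower, also near those shares, and Plec was 0.86 ± 0.16 lower.

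Other intermediate filament genes were compared as well. Of 8 tested, 5 were higher and 1 lower in progenitor cells than in tissue, among them the lamin genes Lmnb1 (3.20 ± 0.19) and Lmna (1.92 ± 0.13), and Vim was 0.69 ± 0.13 higher. In organoids against progenitor cells 2 of the 8 were higher and 3 lower, near the shares of all tested genes. Lmnb1 was 4.50 ± 0.19 lower there, Nes 2.68 ± 0.19 lower and Lmna 2.03 ± 0.13 higher, while Vim was not called (-0.09 ± 0.13, adjusted p = 0.517). The epithelial adhesion genes Epcam and Cdh1 were 1.06 ± 0.17 and 0.77 ± 0.12 higher in progenitor cells than in tissue and 0.69 ± 0.17 and 1.37 ± 0.12 lower in organoids than in progenitor cells.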

How the data were processed

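Per the labels' protocols, total RNA from RNeasy columns was labelled with a 3' IVT PLUS kit. The submitters' processing notes name MAS5, without a version, as the source of the signals. The authors deposited log2 signals of 45101 probe sets on 12 arrays, whose number limits the precision. Their unlogged mean, with 2% trimmed at each end, is the same on all arrays. Detection calls played no part.

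Of all probe sets, 64 were controls and were left out, and the platform annotation gave 1 gene symbol to 34958, several to 932 and none to 9211. The brightest probe set stood for each of 18193 genes (61 probe sets named a keratin, and 9 of the 48 keratins had several). The offset, 15.1473 signal units, was the 25th percentile of all unlogged values. Of these genes, 13037 were tested with limma 3.58.1 in R 4.3.3 with 6 group means, 6 residual degrees of freedom, a mean-variance trend and Benjamini-Hochberg adjustment at 0.05, in 8 comparisons. The test was tried on simulated data. Every tested keratin is described, every called one with its value on each array, and from other gene lists up to 4 of the largest called members with 10 followed genes. The keratins and lists were chosen with earlier results of these data known. Alternatives covered scaling, offset, filter, probe set, fit and single arrays. Equal replicate numbers did not deviate together, so no pairing was used. Promoter sequences are RefSeq's, build GRCm38.p6.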

Additional observations from a re-analysis of the deposited data

Results flagged for a closer look

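The regional difference of Krt15 differed by sample type: medulla minus cortex was 3.32 lower in progenitor cells than in tissue (-3.3165 on the log2 scale, adjusted p = 0.0325, limma). The call was lost without any 1 of 8 arrays, namely the 4 progenitor arrays, the 2 cortex tissue arrays and the 2 cortex organoid arrays. Krt15 entered the test through medulla tissue alone, so the call is given as a description.

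For 6 further keratins the arrays of 1 sample type were all higher in medulla while those of another were all lower. With 2 arrays per group, separation alone is a weak criterion, and the share of all tested genes that meet it was not counted. The 6 are therefore listed as a description and not as regional reversals. Medulla minus cortex was -0.45 in organoids and 2.58 in tissue for Krt19, -0.61 in organoids and 0.66 in tissue for Krt23, and -0.47 in organoids and 0.46 in tissue for Krt7. These differences between organoids and tissue were not tested. Krt17 gave 0.46 in organoids and 1.11 in progenitor cells, against -0.26 in tissue, and Krt6a gave 0.45 in organoids and 1.08 in progenitor cells, against -0.22 in tissue. The contrast of progenitor cells with tissue was not called for Krt17 (adjusted p = 0.544, limma) or Krt6a (adjusted p = 0.377), and the contrast of organoids with tissue was not tested. On the second Krt17 probe set the differences were -0.11 in organoids, -0.37 in progenitor cells and -0.26 in tissue, and in tissue the 2 further Krt6a probe sets gave 0.84 and 0.21, so these reversals were seen on 1 probe set of each gene. Krt4 gave -0.19 in organoids, against 0.60 in progenitor cells and 0.48 in tissue, and the contrast of organoids with progenitor cells was not called (adjusted p = 0.360), while that of organoids with tissue was not tested. On the second Krt4 probe set the contrast of organoids with progenitor cells was -2.53 and called (adjusted p = 0.0228).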

How the results depend on the processing

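The 55 called keratin differences were recomputed under every alternative: of 1264 values, 1193 kept direction and call, 69 kept direction without the call and 2 turned over, both on other probe sets (organoids against tissue, -0.10 for Krt17 and 0.41 for Krt6a). With a replicate block all 55 kept their calls (14, 18 and 17 keratins between sample types). Correlations of same-numbered arrays over 15 group pairs were -0.14 to 0.06, so the numbers were not taken as pairs. Depth is not defined for arrays, and dim keratins are limited by background.

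The number of keratins called changed as follows. Between progenitor cells and tissue and between organoids and tissue it was 14 and 17, and 9 and 10 when a gene had to lie above the median on 6 arrays, where fewer keratins were tested. Between medulla and cortex tissue it was 3, but 0 with only the groups compared and 1 without the variance trend. In progenitor cells it was 0, but 1 with the median offset, with only the groups compared and with array weights. In organoids it was 2, but 4 with quantile normalization, 1 with 75th percentile scaling, with the filter of 6 arrays and without the trend, and 0 with only the groups compared and with array weights. For the regional difference in progenitor cells against tissue it was 1, but 2 with quantile normalization, 3 with array weights, and 0 with an offset of 1 and with the filter of 6 arrays. For that in organoids against progenitor cells it was 0, but 1 with quantile normalization and with the mean of all probe sets. Apart from fewer genes or arrays in a fit, the cause was not tested.

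Leaving out 1 array gave 12 to 15 keratins in progenitor cells against tissue, 16 to 18 in organoids against progenitor cells and 15 to 17 in organoids against tissue. By region it gave 1 to 4 in tissue (1 without cortex replicate 1), 0 in progenitor cells and 0 to 4 in organoids (0 without either cortex array, 4 without medulla replicate 1). The 2 contrasts of regional differences gave 0 to 3, with 0 without any of 8 arrays named above and 3 without either medulla organoid array, and 0 to 1. The median of all tested genes in organoids against tissue was -0.29, and -0.38 and -0.51 under quantile and 75th percentile scaling. In organoids against progenitor cells it was -0.29, and -0.36 and -0.40.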

Other observations

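Uroplakin genes did not move together in organoids. Upk1a, which codes for a tetraspanin of the urothelial plaque, was 10.39 and 10.74 in medulla organoids and 12.53 and 12.38 in cortex organoids, against 6.33 to 6.79 on progenitor and 6.43 to 7.48 on tissue arrays. It was 4.98 ± 0.23 higher in organoids than in progenitor cells (adjusted p = 4.20e-09, limma) and 1.89 ± 0.33 lower in medulla than in cortex organoids (adjusted p = 0.00281). Against the same progenitor cells, Upk3b was 2.44 ± 0.25 and Upk2 1.77 ± 0.38 lower in organoids, while Upk3a and Upk1b were not called. Against tissue, Upk3a was 2.52 ± 0.35 and Upk1b 1.57 ± 0.34 lower in organoids. Both were higher in medulla than in cortex tissue, so these averages over the regions depend on medulla tissue.

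Of 8 tested cornified envelope genes, 4 were higher and 0 lower in progenitor cells than in tissue, where 36.8% of all tested genes were higher and 35.9% lower. The median was 0.69, beside 0.03 for all tested genes, and the higher genes included Ivl (2.05 ± 0.22) and Sprr1a (1.93 ± 0.27). In organoids against progenitor cells 2 were higher and 3 lower, near the shares of all tested genes (28.1% and 44.3%). Sprr1a was 1.68 ± 0.27 higher there, and Tgm1, a transglutaminase that links envelope proteins, 3.28 ± 0.32 lower. Sprr1b was 2.74 ± 0.42 higher in medulla than in cortex organoids.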
